A study of Mus musculus with 18 samples.

Results

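The enzymes described here remove superoxide and peroxides, and they are the products of 9 genes: the superoxide dismutases Sod1, Sod2 and Sod3, catalase (Cat), and the glutathione peroxidases Gpx1, Gpx3, Gpx4, Gpx7 and Gpx8. The genes were chosen by name from the 55487 genes of the count files, whose Ensembl identifiers were matched to mouse symbols through GENCODE M21. All 9 were found, and all 9 were among the 13600 genes that passed a filter on low counts. The labels describe T23 cells, which are mouse prostate adenocarcinoma cells, alone or in co-culture. RNA was sequenced as 18 libraries, 3 replicates in each of 6 groups. The groups were T23 cells alone, T23 cells with fibroblasts that were either wild-type or SPARC-deficient (a group each), T23 cells with enzalutamide (an antagonist of the androgen receptor), T23 cells with fibroblasts and enzalutamide, and T23 cells with fibroblasts, enzalutamide and isoliquiritigenin (a chalcone from liquorice). The labels name the fibroblasts of the last 2 groups as human in the descriptions, but the titles use the fibroblast name of the wild-type co-culture. Which is right cannot be told here, and those fibroblasts are called only fibroblasts below. Doses, times, the layout of the co-cultures and whether replicates were separate cultures are not given in the sources used here, so p-values measure the spread between these libraries, which may be technical.

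Superoxide leaks from mitochondrial respiration and is made by oxidases at membranes. Superoxide dismutases turn it into hydrogen peroxide. Sod1 does so in the cytosol with copper and zinc, Sod2 in the mitochondrial matrix with manganese, and Sod3 outside the cell, where its basic C-terminal end holds it on heparan sulphate. Catalase breaks down hydrogen peroxide in peroxisomes. Glutathione peroxidases reduce peroxides with glutathione or other thiols: Gpx1 in the cytosol, Gpx3 mainly in plasma, Gpx4 on phospholipids in membranes, and Gpx7 and Gpx8 in the endoplasmic reticulum. In the prostate these enzymes are studied because androgen signalling affects the redox balance of the tissue.

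The sequence around the catalytic residue divides the peroxidases and is shown for that reason. Each line gives 30 coding bases from 5′ to 3′ in the GENCODE M21 transcript, with the catalytic codon in capitals. In Gpx1, Gpx3 and Gpx4 this codon is an in-frame TGA that the annotation marks as selenocysteine, so the protein depends on selenium. Gpx7 has TGT and Gpx8 has TGC at the same place, both of which encode cysteine.
Gpx1: aatgtcgcgtctctcTGAggcaccacgatc
Gpx3: aacgtagccagctacTGAggtctgacagac
Gpx4: aacgtggcctcgcaaTGAggcaaaactgac
Gpx7: aacgtagctagcgaaTGTggcttcacagac
Gpx8: aacgtggctagtgacTGCcgcttcacagac
On GRCm38 these bases lie at chr9:108339436-108339465 (plus strand, codon 47 of 201) for Gpx1, chr11:54907241-54907270 (plus strand, codon 73 of 226) for Gpx3, chr10:80054722-80054751 (plus strand, codon 73 of 197) for Gpx4, chr4:108403418-108403447 (minus strand, codon 56 of 186) for Gpx7 and chr13:113045649-113045678 (minus strand, codon 79 of 209) for Gpx8. All 5 stretches are exonic and coding.

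Sod3 is the member whose transcript varied most, and the next line shows the coding stretch for its matrix-binding end. The capitals mark a run of 6 arginine and lysine codons that starts at codon 239 of 251.
Sod3: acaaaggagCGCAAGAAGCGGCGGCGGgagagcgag
These bases are at chr5:52368666-52368701 on the plus strand of GRCm38, within 1 coding exon.

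The 9 genes are at chr16:90220754-90226329 (Sod1, ENSMUSG00000022982), chr17:13006846-13040063 (Sod2, ENSMUSG00000006818), chr5:52363791-52371418 (Sod3, ENSMUSG00000072941), chr2:103453849-103485160 (Cat, ENSMUSG00000027187), chr9:108338903-108340343 (Gpx1, ENSMUSG00000063856), chr11:54902453-54910377 (Gpx3, ENSMUSG00000018339), chr10:80047166-80056439 (Gpx4, ENSMUSG00000075706), chr4:108400390-108406961 (Gpx7, ENSMUSG00000028597) and chr13:113042753-113046410 (Gpx8, ENSMUSG00000021760) on GRCm38. Sod1 and Gpx8 overlap the opposite-strand genes Scaf4 and Cdc20b, with 0 shared exonic bases. Gpx4 has a transcribed processed pseudogene, Gpx4-ps2, with 1986 counts over the 18 libraries beside 52846 for Gpx4, so a small part of the Gpx4 reads may be misplaced. The other mouse peroxidases of the family, Gpx2, Gpx5 and Gpx6, had 0 counts in all 18 libraries. At these depths a count of 0 allows up to 3 counts in a library. In counts scaled to a total of 1 M (CPM) that is 0.112 to 0.186, and this limit covers counting error only.

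Library totals ran from 16.1 to 26.7 M counts. In replicate 2 of enzalutamide without fibroblasts, a single ribosomal RNA gene held 26.4% of counts, against at most 0.138% in the other 17 libraries. Levels below are CPM scaled by TMM, a method that corrects for such differences in composition, and are given as mean ± SD (n = 3 libraries). Mitochondrial genes held 0.824 to 1.68% of counts in the 3 groups without enzalutamide and 1.55 to 4.06% in the 3 with it. Sparc stood at 2977 to 3101 CPM with SPARC-deficient fibroblasts and at 3049 to 3092 CPM with wild-type ones, so the genotype of the fibroblasts cannot be read from it here. T23 cells alone already held 11 of 13 fibroblast markers at 10 CPM or above, whereas the luminal epithelial markers Epcam, Krt8, Krt18 and Cdh1 were below 1 CPM in all 18 libraries. RNA of fibroblasts can therefore not be told from RNA of T23 cells by these markers, nor fewer cells of a type from less RNA per cell.

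Per kilobase of the main transcript, in T23 cells alone, Sod1 was the most abundant member at 427 ± 19.9 CPM per kb, followed by Gpx4 at 145 ± 2.06. Gpx8 stood at 80.4 CPM per kb, Gpx1 at 45.5, Gpx7 at 30.5, Cat at 30.3 and Sod2 at 8.97. Sod3 at 1.503 and Gpx3 at 0.170 CPM per kb were the lowest. The order of the first 3 depends on the transcript length used. With the union of all exons, which is much longer for Sod1, Gpx4 led at 80.8 CPM per kb, ahead of Gpx8 at 80.0 and Sod1 at 68.9, and the order of the other 6 did not change. The extracellular enzymes Sod3 and Gpx3 were thus the least abundant on either scale, and Sod1, Gpx4 and Gpx8 the most abundant. Across the 6 groups the highest group mean was 3.77 times the lowest for Sod3. The same ratio was 1.32 for Gpx1, 1.25 for Gpx7, 1.24 for Sod1, 1.22 for Cat and Sod2, 1.16 for Gpx4 and 1.11 for Gpx8. For Gpx3, at its very low counts, it was 2.14.

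Sod3 was higher with SPARC-deficient fibroblasts than with wild-type fibroblasts, and higher in the co-cultures with enzalutamide and isoliquiritigenin than with enzalutamide alone. In T23 cells alone its 3 libraries held 5.85, 6.23 and 4.79 CPM. With wild-type fibroblasts they held 7.24, 10.1 and 6.27 CPM, and with SPARC-deficient fibroblasts 17.1, 13.1 and 15.1 CPM. The 3 groups were ordered without overlap, although the lowest library with wild-type fibroblasts came close to the highest of T23 cells alone. With enzalutamide and no fibroblasts Sod3 stood at 3.88, 3.99 and 4.14 CPM, the lowest values of the series. Adding fibroblasts to enzalutamide gave 6.49, 10.3 and 7.95 CPM, and adding isoliquiritigenin as well gave 13.6, 16.0 and 15.4 CPM. These last 3 libraries overlapped with those of the SPARC-deficient co-culture and lay above all libraries of the other 4 groups. The levels rest on 44 to 378 counts of Sod3 per library.

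**Figure D1:**
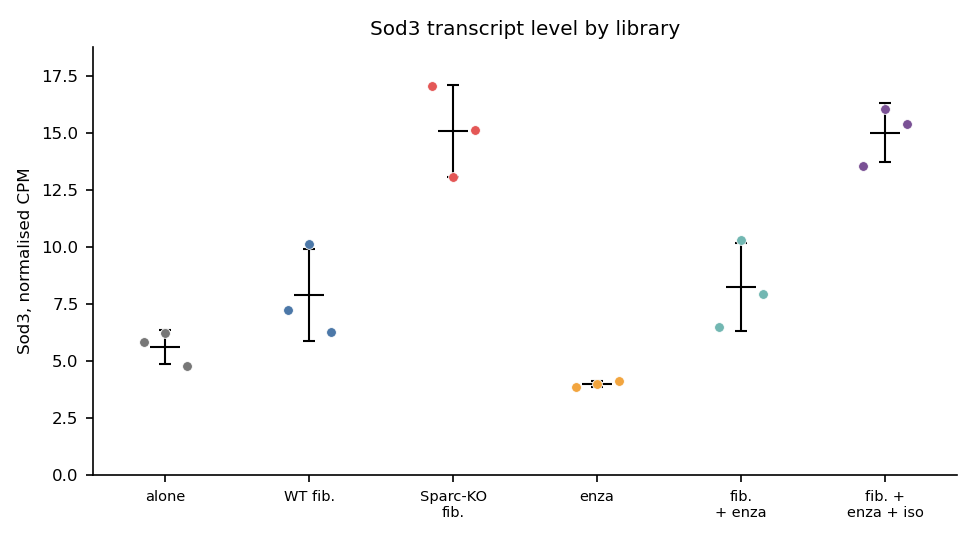
Sod3 level in normalised CPM (y axis) in each library (points), with the group mean and SD (bars, n = 3), for T23 cells alone, with fibroblasts (fib.) that were wild-type (WT) or SPARC-deficient (Sparc-KO), with enzalutamide (enza), and with fibroblasts and enzalutamide without or with isoliquiritigenin (iso). The 3 libraries with SPARC-deficient fibroblasts and the 3 with isoliquiritigenin lie between 13.1 and 17.1 CPM, above the other 12, which end at 10.3 CPM.

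The first comparisons set co-cultures with fibroblasts of either genotype against each other and against T23 cells alone. Sod3 was the only member called in them. Here and below, called means an adjusted p under 0.05 in edgeR's quasi-likelihood F test, with Benjamini-Hochberg adjustment over the 13600 genes. Sod3 rose 1.89-fold with SPARC-deficient against wild-type fibroblasts (log2 fold change 0.92 ± 0.15 SE, edgeR adjusted p = 0.000221). Against T23 cells alone the rise was 2.68-fold (1.42 ± 0.16, edgeR adjusted p = 1.55e-06), which ranked it 50th by p among all genes tested. Thus 1 of 9 members was called in each of these comparisons, beside 11.5% of all genes against wild-type fibroblasts and 9.74% against T23 cells alone. Both calls held in all 14 alternative analyses. Wild-type fibroblasts against T23 cells alone gave a log2 difference for Sod3 of 0.50 ± 0.17 (95% interval 0.15 to 0.86, edgeR adjusted p = 0.247), and 0 of 9 members were called, beside 0.515% of all genes. With edgeR 1 member, Sod3, had an unadjusted p under 0.05 in that comparison, as did 1420 of the 13600 genes. DESeq2 also called 0, whereas Sod3 was called without the filter on low counts (edgeR adjusted p = 0.0210). The summed level of the 13 fibroblast markers was 34285 to 36022 CPM with SPARC-deficient fibroblasts. It was 31520 to 32933 CPM with wild-type ones and 32473 to 33745 CPM in T23 cells alone. Of 12 tested markers, 2 were called higher and 2 lower with SPARC-deficient against wild-type fibroblasts. Against T23 cells alone, 2 were called higher and 1 lower with SPARC-deficient fibroblasts, and 1 higher with wild-type ones. The part of these markers in the Sod3 result was not tested.

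Of the other 8 members no further one was called between these groups, and apart from Gpx3 the differences were small. For Gpx3 the 95% interval of the log2 difference with SPARC-deficient against wild-type fibroblasts was -0.89 to 1.29, too wide to judge. For Sod1, the group means were 273.7 ± 12.8 CPM alone, 293.9 ± 18.9 in the wild-type co-culture and 296.5 ± 9.68 in the SPARC-deficient one, and the ranges overlapped. Sod2 was at 52.6 ± 2.21, 52.4 ± 2.10 and 54.4 ± 3.02 CPM and Cat at 79.2 ± 2.32, 78.4 ± 3.70 and 77.4 ± 1.82 CPM in the same order. The intervals show how far a difference could go: with SPARC-deficient against wild-type fibroblasts the 95% interval of the log2 difference was -0.11 to 0.13 for Sod1, -0.07 to 0.18 for Sod2, -0.15 to 0.11 for Cat and -0.07 to 0.15 for Gpx4. Gpx1 was the member nearest to a further call. It held 49.2, 47.8 and 49.2 CPM in T23 cells alone and 46.1, 38.1 and 43.2 CPM with SPARC-deficient fibroblasts, ranges that did not overlap, with a log2 difference of -0.20 ± 0.09 (edgeR adjusted p = 0.189). It was called only where the fit was limited to those 2 groups (edgeR adjusted p = 0.0325). The median log2 difference of the 9 members was 0.05 against T23 cells alone and 0.02 against wild-type fibroblasts, where that of all tested genes was -0.01 in both.

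With enzalutamide and no fibroblasts more members were called than in any of the other 7 tests, by small amounts. The dismutases of the cytosol and mitochondria and catalase rose, Gpx1 fell, and Sod3 did not pass the test. These 4 of 9 members were called beside 12% of all genes. Of these, 3 rose beside 6.84% of all genes called higher, and 1 fell beside 5.19% called lower. Sod1 went from 267, 288 and 266 CPM in T23 cells alone to 319, 331 and 323 CPM, with no overlap. The rise was 1.19-fold (log2 0.25 ± 0.06, edgeR adjusted p = 0.00807), and it was called in all 13 alternatives (adjusted p 0.000699 to 0.0495).

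Cat, the peroxisomal enzyme, went from 79.0, 76.9 and 81.5 CPM to 91.6, 107 and 85.6 CPM (log2 0.25 ± 0.06, edgeR adjusted p = 0.00945). Its highest value came from replicate 2, the library with the large share of ribosomal RNA. Without that library the log2 difference was 0.16 and the edgeR adjusted p was 0.0577. The call was also lost without replicate 2 of T23 cells alone (0.0510) and when the other 4 groups were left out of the fit (0.0876). Sod2, the mitochondrial dismutase, went from 50.03, 54.1 and 53.5 to 58.2, 59.6 and 62.9 CPM, again without overlap (log2 0.20 ± 0.06, edgeR adjusted p = 0.0318). Its call was lost in 6 of 13 alternatives, among them each fit without 1 library of T23 cells alone, with edgeR adjusted p of 0.151, 0.0521 and 0.0715, and the fit without enzalutamide replicate 3, with 0.113. Gpx1 was the only member called lower. It went from 49.2, 47.8 and 49.2 CPM to 39.7, 31.1 and 42.7 CPM (1.27-fold lower, log2 -0.35 ± 0.09, edgeR adjusted p = 0.0143), and its lowest value was again in replicate 2. Without that library the log2 difference was -0.24 and the edgeR adjusted p 0.0540. The call was also lost, at log2 differences of -0.34 to -0.35, without replicate 1 (0.0511) or replicate 3 (0.0516) of T23 cells alone and when the other 4 groups were left out (0.0594).

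The remaining members did not pass the test with enzalutamide. Sod3 had a log2 difference of -0.49 ± 0.19 (edgeR adjusted p = 0.104), with all 3 enzalutamide libraries below all 3 of T23 cells alone. Without the filter on low counts it was called (log2 -0.50, edgeR adjusted p = 0.0154). Gpx4, the phospholipid peroxidase, was at 139.3 ± 1.98 CPM alone and 128.5 ± 3.08 CPM with enzalutamide, also without overlap (log2 -0.12 ± 0.05, edgeR adjusted p = 0.165). The endoplasmic reticulum enzymes Gpx7 and Gpx8 had log2 differences of -0.10 ± 0.08 and -0.07 ± 0.05, and their ranges overlapped. The median over the 9 members was -0.09 on the log2 scale, where that of all tested genes was 0.00, with 6 of 9 members below 0. Mitochondrial transcripts made up 1.88 to 4.06% of counts with enzalutamide and 0.824 to 1.11% without. The summed fibroblast markers stood at 28121 to 30585 CPM against 32473 to 33745 CPM, with 2 of 12 tested markers called higher and 4 lower. The part of either in these differences was not tested.

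**Figure D2:**
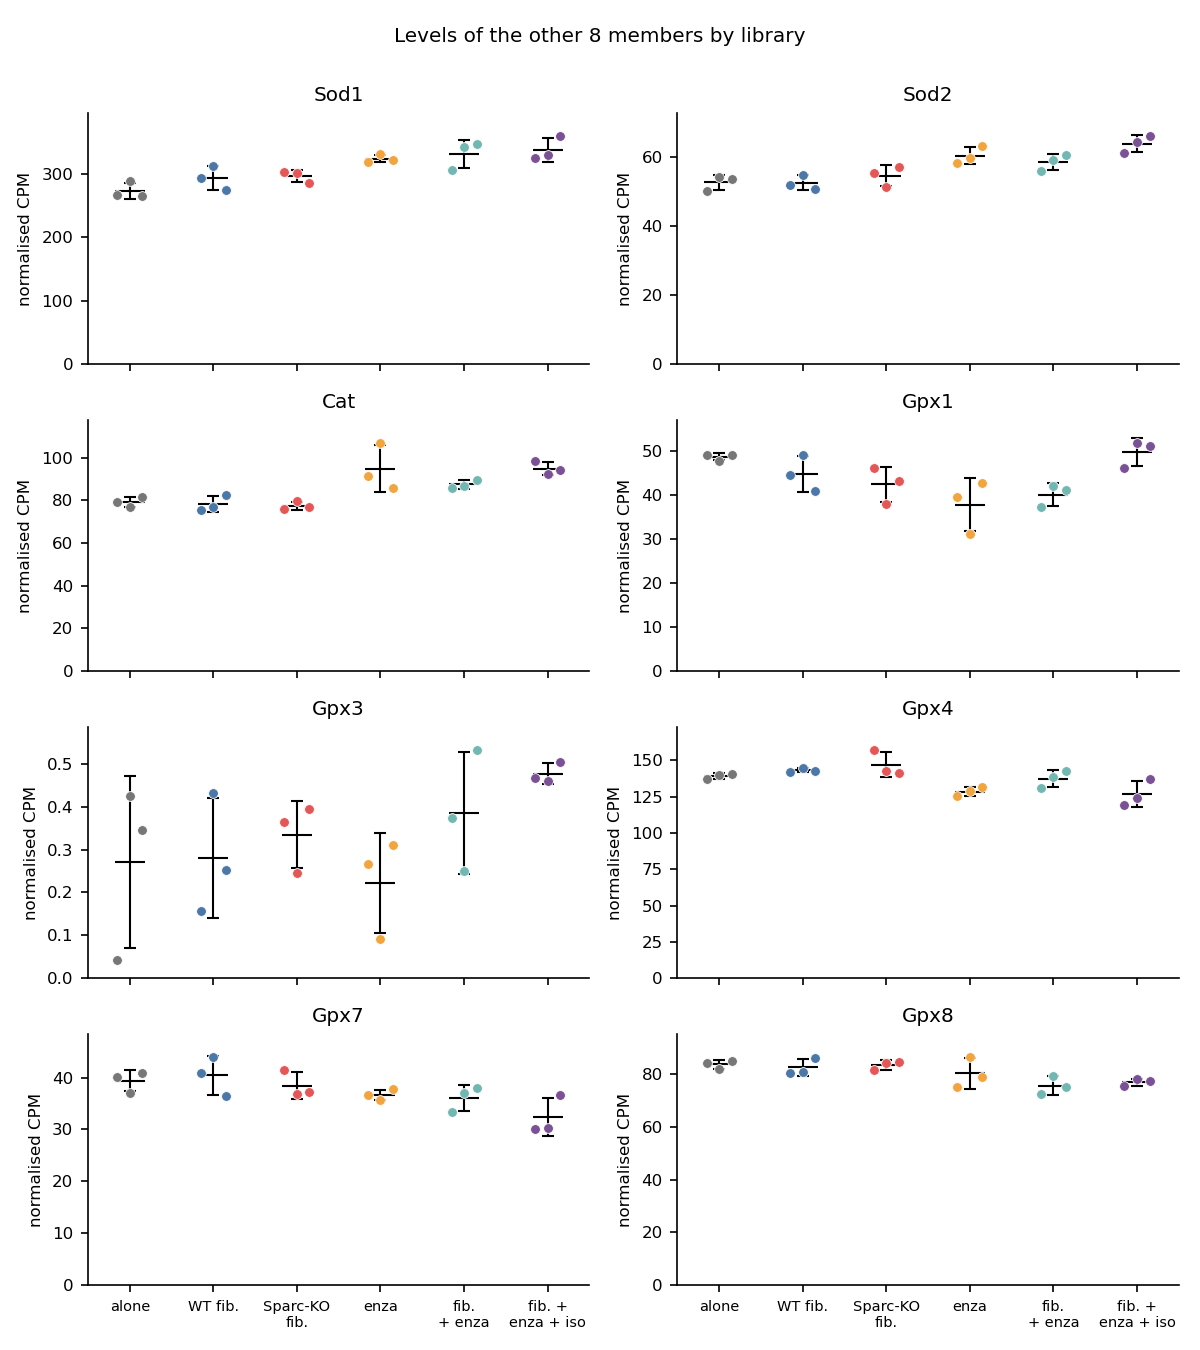
Levels in normalised CPM (y axes, each from 0) of the 8 members other than Sod3 in each library (points), with the group mean and SD (bars, n = 3) and the same groups along the x axis as in the plot of Sod3. Sod1, Sod2 and Cat are higher in the enzalutamide libraries than in T23 cells alone, Gpx1 is lower there and higher again with isoliquiritigenin, and Gpx3 stays at or below 0.533 CPM.

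In the presence of fibroblasts the enzalutamide differences had the same signs for Sod1, Sod2, Cat and Gpx1, but 0 of 9 members were called, beside 7.18% of all genes. If the descriptions are right, the source of the fibroblasts may differ between these groups as well as the drug. This comparison cannot tell these apart. Here 4 members had an unadjusted edgeR p under 0.05, as did 2773 of the 13600 genes, and DESeq2 called 1, Sod1. Sod1 held 293, 313 and 275 CPM without and 307, 343 and 347 CPM with enzalutamide, and the ranges overlapped in 1 library (log2 0.18 ± 0.06, edgeR adjusted p = 0.0719). Its adjusted p crossed the threshold without fibroblast replicate 2 (0.0394), without replicate 1 of fibroblasts with enzalutamide (0.0217), without enzalutamide replicate 2 (0.0341) and in DESeq2 (0.0313). With the title numbering described below as a term the log2 difference was 0.06 (edgeR adjusted p = 0.808). In effect that fit sets only replicate 1 of fibroblasts with enzalutamide against the wild-type co-culture. Sod2 had a log2 difference of 0.15 ± 0.06 (edgeR adjusted p = 0.129) and Cat one of 0.16 ± 0.06 (edgeR adjusted p = 0.136, and 0.0373 without enzalutamide replicate 2). For Gpx1 it was -0.16 ± 0.09 (edgeR adjusted p = 0.327), for Gpx7 -0.17 ± 0.08 (0.256) and for Gpx8 -0.13 ± 0.05 (0.169).

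Whether the response to enzalutamide differed with and without fibroblasts was tested as an interaction, which carries the same uncertainty about the source of the fibroblasts. No member was called, and 3 of 13600 genes were, which is 0.0221%. With edgeR 1 member, Sod3, had an unadjusted p under 0.05, as did 755 of the 13600 genes, and DESeq2 called 0. The interaction of Sod3 was 0.53 ± 0.25 on the log2 scale (edgeR adjusted p = 0.883). Its log2 difference with enzalutamide was -0.49 without fibroblasts and 0.04 with them (95% interval -0.29 to 0.38). For Sod1 the interaction was -0.07 ± 0.08, for Sod2 -0.04 ± 0.08, for Cat -0.09 ± 0.09 and for Gpx1 0.19 ± 0.13. A call for Sod1 without fibroblasts and none with them is therefore not shown to be a difference between the 2 settings.

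Among enzalutamide cultures, those with fibroblasts had 2.05-fold more Sod3 transcript than those without (log2 1.04 ± 0.19, edgeR adjusted p = 0.00285). It was the only member called of 9, beside 2.08% of all genes. The rise is not secure against the numbering of the libraries. In the titles, replicates 2 and 3 of fibroblasts with enzalutamide and all 3 isoliquiritigenin libraries end in an index that differs from their leading number, whereas in the other 13 libraries both match. What this numbering stands for is not stated. With it as a term in the fit the Sod3 difference was 0.70 (edgeR adjusted p = 0.333). Within the matching numbers only replicate 1 of fibroblasts with enzalutamide remains, at 6.49 CPM, above the 3.88 to 4.14 CPM of enzalutamide without fibroblasts. The summed fibroblast markers of the co-cultures, 28150 to 29502 CPM, lay inside the 28121 to 30585 CPM without fibroblasts. The markers Acta2 and Pdgfrb were called higher, and their part in the Sod3 result was not tested.

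When isoliquiritigenin was added to fibroblasts and enzalutamide, Sod3 and Gpx1 rose. The rise of Sod3 was 1.82-fold (log2 0.86 ± 0.15, edgeR adjusted p = 0.000127), and this call held in all 14 alternatives. With the numbering as a term the difference was 0.71 (edgeR adjusted p = 0.00208), and within the libraries whose numbers differ, 10.3 and 7.95 CPM without isoliquiritigenin stood below 13.6 to 16.0 CPM with it. Gpx1 held 37.2, 42.0 and 41.2 CPM without and 46.1, 51.9 and 51.2 CPM with isoliquiritigenin, ranges that did not overlap (1.24-fold, log2 0.31 ± 0.09, edgeR adjusted p = 0.0127). The group mean of 49.7 ± 3.17 CPM was close to the 48.7 ± 0.803 CPM of T23 cells alone, a pair of groups that was not tested. The Gpx1 call was lost with the numbering as a term (edgeR adjusted p = 0.0743), without replicate 1 of fibroblasts with enzalutamide (0.0751) and without isoliquiritigenin replicate 2 (0.0610). The first 2 of these fits are nearly the same, because replicate 1 is the only library of fibroblasts with enzalutamide whose numbers match.

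These 2 of 9 members were called higher in a comparison where 26.5% of all genes were called and 12.9% were called higher, so the share of members is not far from the background. Sod2 was at 58.4 ± 2.32 CPM without and 63.8 ± 2.50 CPM with isoliquiritigenin, and Cat at 87.4 ± 1.97 and 94.8 ± 3.16 CPM. The ranges of both were apart, yet neither passed (edgeR adjusted p = 0.119 and 0.167). Sod1 and Gpx8 moved by 0.03 on the log2 scale each, with 95% intervals of -0.09 to 0.15 and -0.08 to 0.14. Gpx4 and Gpx7 were on the other side of 0, at -0.11 ± 0.05 and -0.16 ± 0.08 (edgeR adjusted p = 0.119 and 0.171). Both passed without isoliquiritigenin replicate 3, with log2 differences of -0.17 and -0.25 (adjusted p = 0.0229 and 0.0299). The selenocysteine enzymes Gpx1 and Gpx4 had opposite signs of the difference, of which that of Gpx1 passed the test. The summed fibroblast markers lay below those of all other groups, at 23679 to 24015 CPM, with 8 of 12 tested markers called lower and 2 higher, and their part in the Sod3 and Gpx1 results was not tested.

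**Figure D3:**
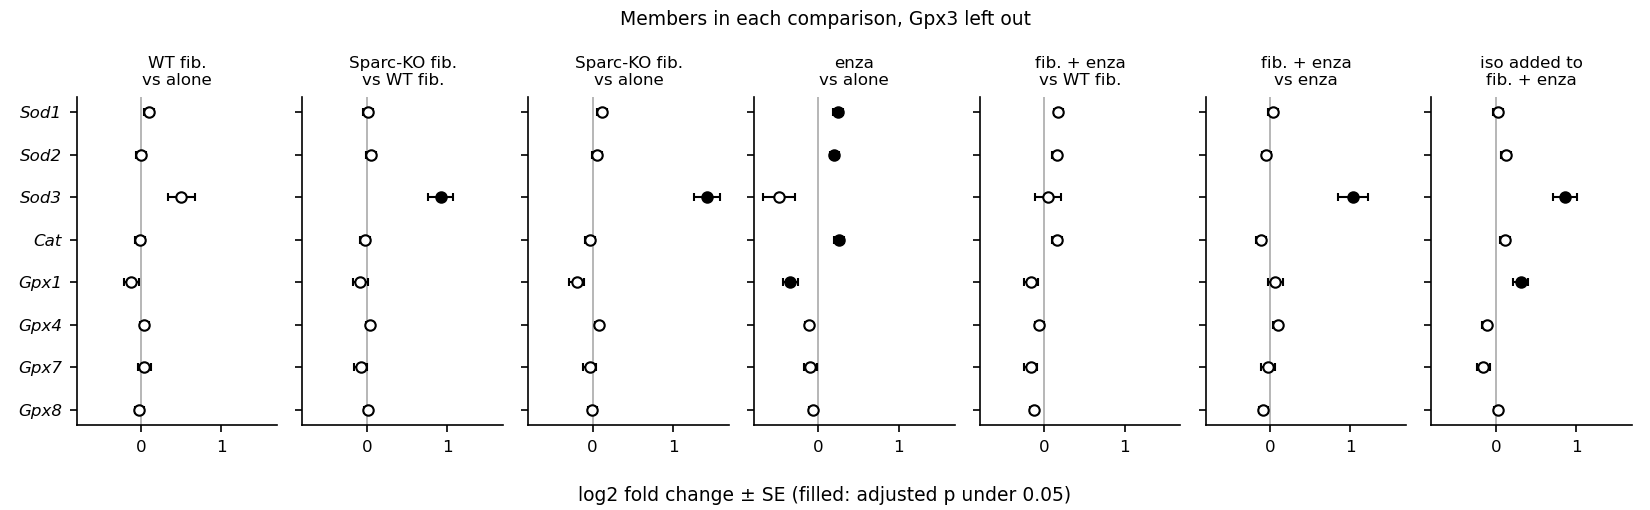
Log2 fold change ± SE (x axis) of the 8 members other than Gpx3 (rows) in the 7 comparisons of 3 against 3 libraries (panels), with filled points for an adjusted p under 0.05 in edgeR. Sod3 is filled in 4 panels and is the farthest from 0 of the filled points in each, Sod1, Sod2, Cat and Gpx1 are filled with enzalutamide without fibroblasts, and Gpx1 is filled again with isoliquiritigenin.

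The 7 comparisons share groups: T23 cells alone serve 3 of them, and the co-cultures with wild-type fibroblasts and with fibroblasts and enzalutamide serve 3 each. The values of a member in different comparisons are therefore not independent, and agreement between them is not counted as a result. Gpx3, the plasma enzyme, had too few reads to say more. It held 1 to 13 counts per library and 131 in all, at 0.0430 to 0.533 CPM, and its interval with isoliquiritigenin was -0.65 to 1.25 on the log2 scale. Its group means ran from 0.223 ± 0.117 CPM with enzalutamide to 0.477 ± 0.0251 CPM with isoliquiritigenin, and neighbouring groups in that order overlapped. The endoplasmic reticulum enzymes Gpx7 and Gpx8 were steadier than Gpx3. Gpx7 ran from 30.2 to 44.0 CPM and Gpx8 from 72.4 to 86.7 CPM over all 18 libraries, and neither was called in any comparison.

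Genes whose levels followed those of a member most closely were found by Pearson correlation of log2 CPM over the 18 libraries. These correlations describe libraries that share groups and depth, and no p is attached. For Sod3 they were Dap (r = 0.937), Slc1a3 (r = 0.924) and C4b (r = 0.914). The group means of Dap ran only from 297 CPM with enzalutamide to 368 CPM with SPARC-deficient fibroblasts, a much smaller relative change than that of Sod3. Slc1a3, a glutamate transporter, went from 12.4 CPM in T23 cells alone to 19.2 CPM with SPARC-deficient fibroblasts and 24.3 CPM with isoliquiritigenin, and was lowest at 10.6 CPM with enzalutamide. C4b, a complement component, was at 10.8, 25.4, 22.5 and 11.1 CPM in the same 4 groups. For Gpx1 they were Tlnrd1 (r = 0.888), Dgcr2 (r = 0.888) and Fis1 (r = 0.882), a mitochondrial fission gene. Tlnrd1 had means of 93.2 CPM alone, 64.3 CPM with enzalutamide and 95.8 CPM with isoliquiritigenin. For Gpx3, at its low counts, the closest were Ocel1 (r = 0.751), Zfp637 (r = 0.745) and Amigo1 (r = 0.739).

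The genes that supply or regulate these enzymes were examined as 8 lists, chosen from textbook knowledge. Their counts are read against the 6.84% of all genes called higher and the 5.19% called lower with enzalutamide without fibroblasts. With enzalutamide without fibroblasts, 7 of 15 tested genes of glutathione synthesis and recycling rose and 0 fell, with a median of 0.22 on the log2 scale. Pgd, which makes NADPH for glutathione reduction, rose by 0.38 ± 0.05 (edgeR adjusted p = 2.76e-05). Gclc, the catalytic subunit of the enzyme that starts glutathione synthesis, rose by 0.49 ± 0.07 (edgeR adjusted p = 5.94e-05), and Slc7a11, which imports cystine, by 0.53 ± 0.11 (edgeR adjusted p = 0.00317). In the list on lipid peroxides, the substrates of Gpx4, 4 of 12 tested genes rose and 0 fell, led by the quinone reductase Nqo1 (0.52 ± 0.08), the ferritin heavy chain Fth1 (0.38 ± 0.07) and the phospholipid acyltransferase Lpcat3 (0.34 ± 0.06).

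In the other lists smaller shares of genes were called with enzalutamide, some of them above the 12% of all genes. Of 13 tested genes for copper and manganese supply, 2 rose, the metallothionein Mt1 (0.23 ± 0.06) and the copper pump Atp7a (0.31 ± 0.09). Of 20 genes for selenium supply and selenoprotein synthesis, Selenop, the selenium carrier, rose by 0.26 ± 0.06 and Selenof fell by 0.23 on the log2 scale. Of 12 tested sources of superoxide and hydrogen peroxide, Maoa (0.43 ± 0.06) and Xdh (0.38 ± 0.06) rose. Of 16 peroxiredoxin and thioredoxin genes 2 rose and 2 fell, among them Txnrd1 (0.23 ± 0.06), Txnip (-0.27 ± 0.08) and Prdx5 (-0.16 ± 0.05). No gene was called among 16 for peroxisome assembly, where Cat resides, or among 14 regulators of antioxidant genes.

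In the isoliquiritigenin comparison 12.9% of all genes were called higher and 13.6% lower, and several lists had shares near these. In glutathione synthesis and recycling 6 of 15 rose and 1 fell (median 0.18), led by Gclc (0.67 ± 0.07, edgeR adjusted p = 8.07e-08), Gclm (0.52 ± 0.06), its regulatory subunit, and Pgd (0.36 ± 0.05). In lipid peroxide control 5 of 12 rose and 1 fell, led by Nqo1 (1.16 ± 0.08, edgeR adjusted p = 3.06e-10), the heme oxygenase Hmox1 (0.54 ± 0.07) and Fth1 (0.46 ± 0.07). In metal supply 3 of 13 rose and 2 fell, with Mt1 at 0.61 ± 0.06, Mt2 at 0.40 ± 0.09 and Slc31a2 at 0.36 ± 0.10. Among selenium genes 3 of 20 rose and 3 fell. Selenop rose by 0.45 ± 0.06, while Sephs1, a selenophosphate synthetase paralog, and Rpl30 changed by -0.20 ± 0.06 and -0.56 ± 0.17. Sources of superoxide and peroxide went both ways, 4 of 12 up and 2 down: Xdh at 0.57 ± 0.05 and Aox1 at 0.61 ± 0.10 rose, and Ero1l, the oxidase of disulphide formation in the endoplasmic reticulum, changed by -0.83 ± 0.15. Of peroxiredoxins and thioredoxins 1 of 16 rose and 4 fell, among them Sesn3 (0.27 ± 0.07), Txnip (-0.51 ± 0.08) and Txn1 (-0.27 ± 0.07). Of 14 regulators 4 rose, led by the coactivator Ppargc1a (1.01 ± 0.21), Foxo1 (0.24 ± 0.08) and Sirt1 (0.23 ± 0.08).

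**Figure D4:**
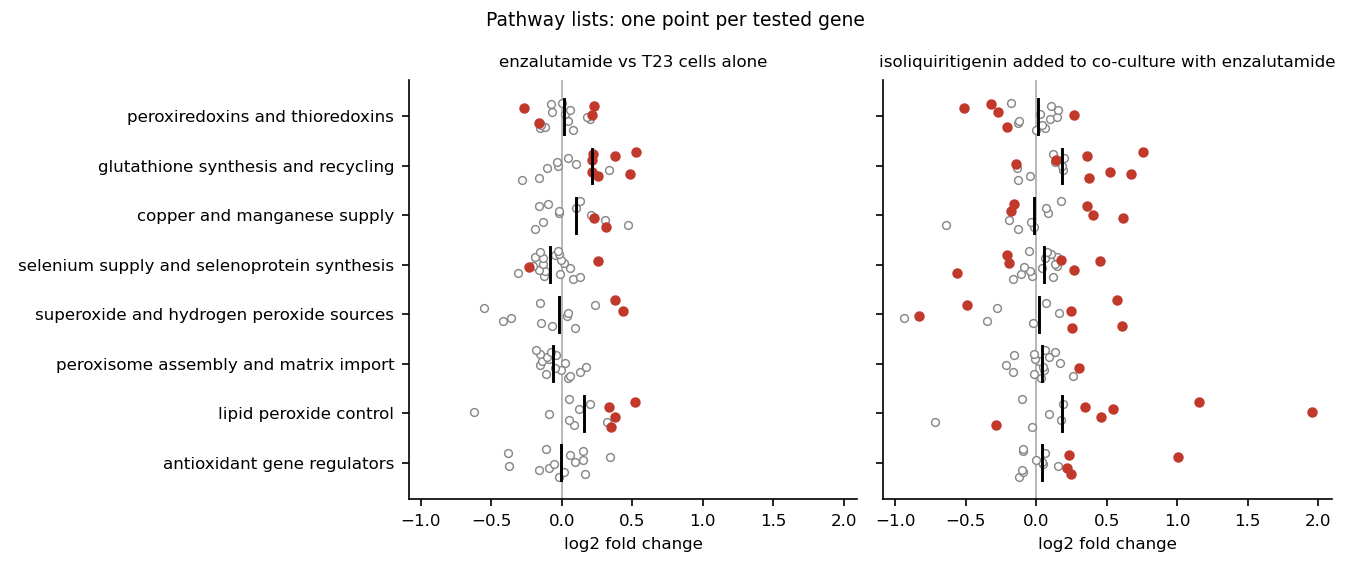
Log2 fold change (x axis) of each tested gene of 8 pathway lists (rows) with enzalutamide against T23 cells alone (left) and with isoliquiritigenin added to fibroblasts and enzalutamide (right). Filled points have an adjusted p under 0.05 in edgeR and the black line is the list's median, which for glutathione synthesis and recycling is 0.22 on the left and 0.18 on the right.

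With SPARC-deficient against wild-type fibroblasts, where Sod3 was the only member called, genes of 8 lists were called as follows. All genes called higher made up 6.72% of those tested and all called lower 4.79%. Of 12 tested sources of superoxide and peroxide 3 rose and 0 fell: Ero1l (0.91 ± 0.14, edgeR adjusted p = 0.000113), Qsox1 (0.30 ± 0.06), another disulphide oxidase, and Duox2 (1.19 ± 0.36), a peroxide-making oxidase. Of 14 regulators 4 rose and 1 fell, with Hif1a at 0.52 ± 0.08, Foxo3 at 0.23 ± 0.05 and Trp53 at -0.27 ± 0.06. In glutathione synthesis Gclc (-0.38 ± 0.07) and Pgd (-0.17 ± 0.05) fell and Glrx (0.43 ± 0.09) rose, 3 of 15 called. In lipid peroxide control 3 of 12 rose and 2 fell, among them Tfrc (-0.50 ± 0.08), Hmox1 (0.30 ± 0.07) and Acsl4 (0.28 ± 0.07). Txnip (0.53 ± 0.08) and Prdx5 (0.26 ± 0.05) rose among 16 peroxiredoxins and thioredoxins, Slc39a8 (0.46 ± 0.11), which carries manganese and zinc, among 13 metal genes, and Pex3 (0.25 ± 0.08) among 16 peroxisome genes. Selenos (-0.26 ± 0.07) and Selenop (-0.24 ± 0.06) fell among 20 selenium genes. Among list genes named both here and for isoliquiritigenin, Gclc, Pgd, Selenop, Ero1l and Txnip had opposite signs, and Hmox1 rose in both. The 2 comparisons have different reference groups, and the relation of these genes to Sod3 was not tested.

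With wild-type fibroblasts against T23 cells alone, where 0.515% of all genes were called, the called list genes were Chac1 (-0.59 ± 0.10), which degrades glutathione, and Txnip (-0.42 ± 0.08). With fibroblasts and enzalutamide against enzalutamide (2.08% of all genes) they were Slc7a11 (-0.55 ± 0.11), Txnip (-0.50 ± 0.08) and Ero1l (-0.84 ± 0.15). With enzalutamide in the presence of fibroblasts, where 7.18% of all genes were called, 3 of 15 glutathione genes rose, Chac1 (0.50 ± 0.10), Gsr (0.20 ± 0.05) and Pgd (0.20 ± 0.05), as did Selenop (0.44 ± 0.06) among 20 selenium genes. Of 12 sources of superoxide and peroxide 3 rose and 1 fell, among them Xdh (0.34 ± 0.05), Maoa (0.23 ± 0.06) and Ero1l (-0.62 ± 0.15). Of 12 genes of lipid peroxide control 3 rose and 0 fell, Fth1 (0.37 ± 0.07), Nqo1 (0.34 ± 0.08) and Lpcat3 (0.26 ± 0.06). Of 16 peroxiredoxins and thioredoxins Sesn3 (0.23 ± 0.07) rose, and Txnip (-0.34 ± 0.08) and Prdx4 (-0.20 ± 0.05) fell. Nfe2l1 (0.16 ± 0.05) rose among 14 regulators, 1 of 16 peroxisome genes fell, and 0 of 13 metal genes were called. Chac1 was the only list gene called in the interaction (0.78 ± 0.14, edgeR adjusted p = 0.0496). That call is not secure: in 14 of 19 alternatives, among them RLE scaling, the replicate block and the numbering term, 0 genes of all were called in the interaction.

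Because Sod1 rose together with the glutathione genes under enzalutamide, the promoters of the members were searched for the core of the antioxidant response element, the site of the factor Nfe2l2 at many glutathione genes. RefSeq windows of 300 bases, from 250 before to 50 after the gene start on GRCm38.p6, were used for 8 of the 9 members, all but Sod3. The letters TGACNNNGC, on either strand, occurred in the window of 1 of these 8, Sod1, at a single place, and in the windows of 14.0% of all 27025 genes, so its share among the members is near the background. The FOXO letters GTAAACA occurred in none of the members' windows and in those of 4.05% of all genes. The GC box letters GGGCGG occurred in the windows of 7 of these 8 members and of 38.2% of all genes. The CCAAT box letters occurred in those of 5 of the 8 and of 41.1% of all genes. These shares were not tested. The Sod1 window is printed below with its match to TGACNNNGC, read on the opposite strand, in capitals. The window is chr16:90220512-90220811 on the plus strand, and the match starts at offset -56 from the gene start.
Sod1: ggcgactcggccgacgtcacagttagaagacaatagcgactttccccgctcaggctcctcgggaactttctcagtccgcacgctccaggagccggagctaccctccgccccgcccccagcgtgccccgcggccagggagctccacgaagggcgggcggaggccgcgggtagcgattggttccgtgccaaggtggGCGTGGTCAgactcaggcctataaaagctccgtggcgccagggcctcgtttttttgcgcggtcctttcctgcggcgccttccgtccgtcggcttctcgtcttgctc
A match of letters is a description of this window and not evidence of binding, and the lack of a match says only that these letters are not there.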

How the data were processed

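Per the labels' protocols, stranded libraries of polyadenylated RNA were sequenced on a NextSeq 550. The authors deposited 1 file per library, with raw counts of reads per gene and no normalisation. Per the submitters' processing notes, the genome build was GRCm38 and the tools included STAR 2.6.1d and featureCounts 2.0, with cutadapt 2.9 among the others. The annotation release and the strand setting are not given in the sources used here.

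Counts were filtered with filterByExpr of edgeR 4.0.16 (minimum count 10), scaled by TMM and fitted in R 4.3.3 (limma 3.58.1) by quasi-likelihood over all 18 libraries with a mean per group and 12 residual degrees of freedom. Tests are two-sided F tests of contrasts. The SE was taken as the size of a log2 fold change divided by the root of its F. The procedure was tested on simulated counts. Alternatives were DESeq2 1.42.0, RLE scaling, no filter, only the groups compared, a replicate block, the title numbering as a term, counts without the ribosomal RNA gene, a fit without enzalutamide replicate 2, and each replicate left out. Replicate numbers did not pair libraries: in 0 of 15 pairs of groups were all correlations of same-numbered libraries over 0.1 (range -0.144 to 0.0982).

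The 9 members and the gene lists were chosen with earlier results of these data known. List genes are named by a rule: per list and comparison, at most the 3 called genes of smallest p. Genes alike are the 3 of highest correlation among genes with a mean of at least 5 CPM, for the 3 members of largest range. Ero1l was matched through RefSeq synonyms. Acta2, Pdgfrb and Sparc were named after their values were seen. Some genes that the lists or the rule name are not reported here.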

Additional observations from a re-analysis of the deposited data

How the results depend on the processing

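The calls of Sod3 with SPARC-deficient fibroblasts and with isoliquiritigenin, and of Sod1 with enzalutamide, held in every alternative run. The replicate block changed no member's call: 0, 1, 1, 4, 0, 1, 2 and 0 members were called with it, in the order wild-type fibroblasts, SPARC-deficient against wild-type fibroblasts, SPARC-deficient co-culture against T23 cells alone, enzalutamide, enzalutamide with fibroblasts, fibroblasts with enzalutamide, isoliquiritigenin, interaction. In that order 70, 1566, 1325, 1636, 977, 283, 3599 and 3 genes of all were called, and over all alternatives 11 to 336, 857 to 2085, 743 to 2188, 740 to 1749, 214 to 1423, 11 to 541, 2522 to 4225 and 0 to 99. The causes of the changes below were not tested.

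Without a filter, 1 member (Sod3) was called with wild-type fibroblasts. With only the groups compared, 2 were called for SPARC-deficient co-culture against T23 cells alone and 1 with enzalutamide. The numbering term left 0 for fibroblasts with enzalutamide and 1 with isoliquiritigenin. For enzalutamide with fibroblasts 2 were called without enzalutamide replicate 2 and 1 by DESeq2. Leaving out a replicate gave 2 to 4 with enzalutamide, 0 to 1 with enzalutamide and fibroblasts, and 1 to 4 with isoliquiritigenin.

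Signs changed only among members that were called in neither fit. With the numbering term the log2 differences were -0.298 for Sod3 (enzalutamide with fibroblasts), -0.0798 for Sod1 and -0.0415 for Gpx1 (fibroblasts with enzalutamide), -0.0272 for Sod1 and -0.00500 for Gpx8 (isoliquiritigenin) and -0.0101 for Gpx4 (interaction). Leaving out a replicate gave, with wild-type fibroblasts, -0.0383 to 0.0201 for Sod2, -0.0569 to 0.00695 for Cat, -0.394 to 0.643 for Gpx3 and -0.0304 to 0.106 for Gpx7. With SPARC-deficient against wild-type fibroblasts it gave -0.0281 to 0.0647 for Sod1, -0.0386 to 0.0254 for Cat, -0.0539 to 0.706 for Gpx3 and -0.0136 to 0.0714 for Gpx4. Against T23 cells alone the ranges were -0.189 to 0.847 for Gpx3 and -0.0198 to 0.0138 for Gpx8, and with enzalutamide -0.628 to 0.409 for Gpx3. The rest were -0.146 to 0.284 for Sod3 (enzalutamide with fibroblasts), -0.0410 to 0.157 for Gpx1 and -0.0673 to 0.0284 for Gpx7 (fibroblasts with enzalutamide), -0.0268 to 0.0606 for Sod1 and -0.00453 to 0.0627 for Gpx8 (isoliquiritigenin), and -0.0122 to 1.02 for Gpx3 and -0.134 to 0.00286 for Gpx7 (interaction).

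CPM over raw totals moved 13 of 54 group means by more than 1 SD. Depth limits Gpx3, at 1 to 13 counts per library.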
